A study of Homo sapiens with 9 samples.

Results

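The genes described here encode a group of SMAD proteins, the ligand BMP7 and the receptors BMPR1A and BMPR2. A probe set was taken when the platform annotation named exactly 1 gene and that gene was SMAD1, SMAD2, SMAD3, SMAD4, SMAD5, SMAD6, SMAD7, BMP7, BMPR1A or BMPR2. This gave 38 of 54613 probe sets and 9 of 19775 genes so named. SMAD1 had 3 probe sets, SMAD2 had 6, SMAD3 had 4, SMAD4 and SMAD5 had 5 each, SMAD6 had 4, SMAD7 had 1, BMP7 had 4 and BMPR2 had 6. BMPR1A had no probe set under this rule and was not analysed here. The genes were selected on earlier results of these arrays, with their log2 fold changes after CD40L and LPS known, so their differences between conditions are given below as a description, with errors and without p-values.

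All arrays came from BL2, an established human Burkitt lymphoma line used to stand for transformed B cells of the germinal centre, so the data describe 1 line of tumour cells. Control cells received no agent, and the labels give no culture time for them. The part of culture time in the differences from control was not tested. Stimulated cells were kept for 6 hrs with recombinant human CD40L at 200 ng/ml or with LPS from E. coli at 1 μM. Each condition had 3 arrays, 1 from each of 3 experimental batches (n = 9 arrays). CD40L is the helper T cell ligand of the receptor CD40, and LPS is a component of the bacterial outer membrane and a ligand of a Toll-like receptor. The comparisons ask how far each of these stimuli alters the transcript levels of the BMP and SMAD components.

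Bone morphogenetic proteins (BMPs) bind pairs of type I and type II receptor serine/threonine kinases at the cell surface. The active type I receptor phosphorylates the receptor SMADs of the BMP branch, which include SMAD1 and SMAD5. SMAD2 and SMAD3 serve the TGF-β and activin branch. Phosphorylated receptor SMADs join the common partner SMAD4 and enter the nucleus, where the ID genes are well known targets of the BMP branch. SMAD6 and SMAD7 inhibit the receptors and are themselves known feedback targets. BMPs are known to restrain the growth of normal and malignant B cells.

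Levels are on the generalised log2 scale of the deposited values, which compresses differences between dim probe sets, so that these understate the fold change. Array medians lay between 6.42 and 6.47, and replicates of 1 condition correlated across probe sets at 0.994 to 0.997. Of the 38 probe sets, 31 had a mean level over the 9 arrays above 6.45, the median of all probe set means, and 7 lay below it. Each probe set has its own affinity, so the genes are not ranked by level. In RNA from whole cultures, fewer cells with a transcript and less transcript per cell cannot be told apart. As a check of the stimulation, 3 of 5 NF-κB target and CD40 genes (NFKB2, TNFAIP3 and ICAM1) were higher after CD40L and 2 (TNFAIP3 and ICAM1) after LPS, while NFKBIA and CD40 passed the threshold in neither. ICAM1, an adhesion molecule, was higher after CD40L (1.00 ± 0.064, log2 fold change ± SE) and after LPS (0.45 ± 0.064). Of 6 measured B cell markers all had means between 8.83 and 13.9.

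The promoter windows of SMAD1 and SMAD5, the receptor SMADs of the BMP branch among the 9 genes, are shown. SMAD1 had the largest differences of these genes, and SMAD5 had no probe set past the threshold. The windows hold the 250 bases before a RefSeq transcription start (GRCh38.p14, plus strand, 5′ to 3′), with motif matches in capitals. Both strands were searched for the κB consensus and for GGCGCC, a GC-rich element to which SMADs of the BMP branch are known to bind. For SMAD1 the table holds 5 windows, and the fifth was picked for its matches. The arrays do not tell which start was used.

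SMAD1, window 5, chr4:145482555-145482804: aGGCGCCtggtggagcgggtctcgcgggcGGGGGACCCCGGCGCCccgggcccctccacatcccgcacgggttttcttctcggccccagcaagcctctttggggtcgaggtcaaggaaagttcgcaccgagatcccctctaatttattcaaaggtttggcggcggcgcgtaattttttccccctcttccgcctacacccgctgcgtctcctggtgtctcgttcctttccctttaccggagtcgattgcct
SMAD5, chr5:136132595-136132844: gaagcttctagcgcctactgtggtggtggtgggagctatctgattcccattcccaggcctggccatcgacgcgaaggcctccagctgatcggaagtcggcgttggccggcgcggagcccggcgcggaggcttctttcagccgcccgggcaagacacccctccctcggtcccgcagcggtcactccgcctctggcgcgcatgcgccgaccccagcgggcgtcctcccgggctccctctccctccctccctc

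The SMAD1 window holds GGGGGACCCC, a match to the κB consensus whose first base lies at −221 from the start, and GGCGCC at −249 and −211. The κB match and the GGCGCC element at −211 are adjacent and do not overlap. Of the other 4 SMAD1 windows, the first 3 hold neither motif and the fourth holds GGCGCC and no κB match. The single SMAD5 window holds neither motif. Over all 35116 windows of this length, 9.96% hold the κB consensus and 16.4% hold GGCGCC. These shares are per window, and SMAD1 had 5 windows against 1 for SMAD5, so the 2 genes were not searched equally. Among the other genes, the first of 5 SMAD3 windows holds both motifs. Both SMAD2 windows and the windows of SMAD4 and BMPR2 hold GGCGCC, and the windows of SMAD6 and SMAD7 hold neither. The window of SMAD9, a further receptor SMAD of the BMP branch, holds neither motif. The brightest SMAD9 probe set was lower after both stimuli. The part of either motif in the transcript levels was not tested. For BMP7 no window was available, so its promoter was not searched. A match is a description of the letters and does not show binding.

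After CD40L stimulation SMAD1 and BMP7 transcripts were lower than in control cells, by about a factor of 2.27 and 1.66 for the probe set of largest change of each gene, and after LPS both were lower by less. SMAD2, SMAD3, SMAD4, SMAD5 and SMAD7 had no probe set past the threshold in either contrast. Of the 38 probe sets, 8 were lower and 0 higher after CD40L (limma, adjusted p at or under 0.05), where 1.87% of all probe sets were lower, 3.71% higher and 5.58% either. In 12 of the 38, all CD40L arrays lay below all control arrays, as in 7.27% of all probe sets. The median log2 fold change over the 38 was −0.06, against 0.005 over all probe sets. Without batch 1 or without batch 3 the count of 8 became 5. After LPS, 4 were lower and 0 higher, where 0.892% of all probe sets were lower, 1.17% higher and 2.06% either, and in 8 the LPS arrays lay below all control arrays, as in 6.38% of all probe sets. The median after LPS was −0.02, against 0.003. The count of 4 became 2 when batch 1, batch 3, replicate 1 or 3 of the control or replicate 1 or 3 of LPS was left out. It became 6 without batch 2. Both contrasts share the control arrays, so they are not independent of each other.

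**Figure D1:**
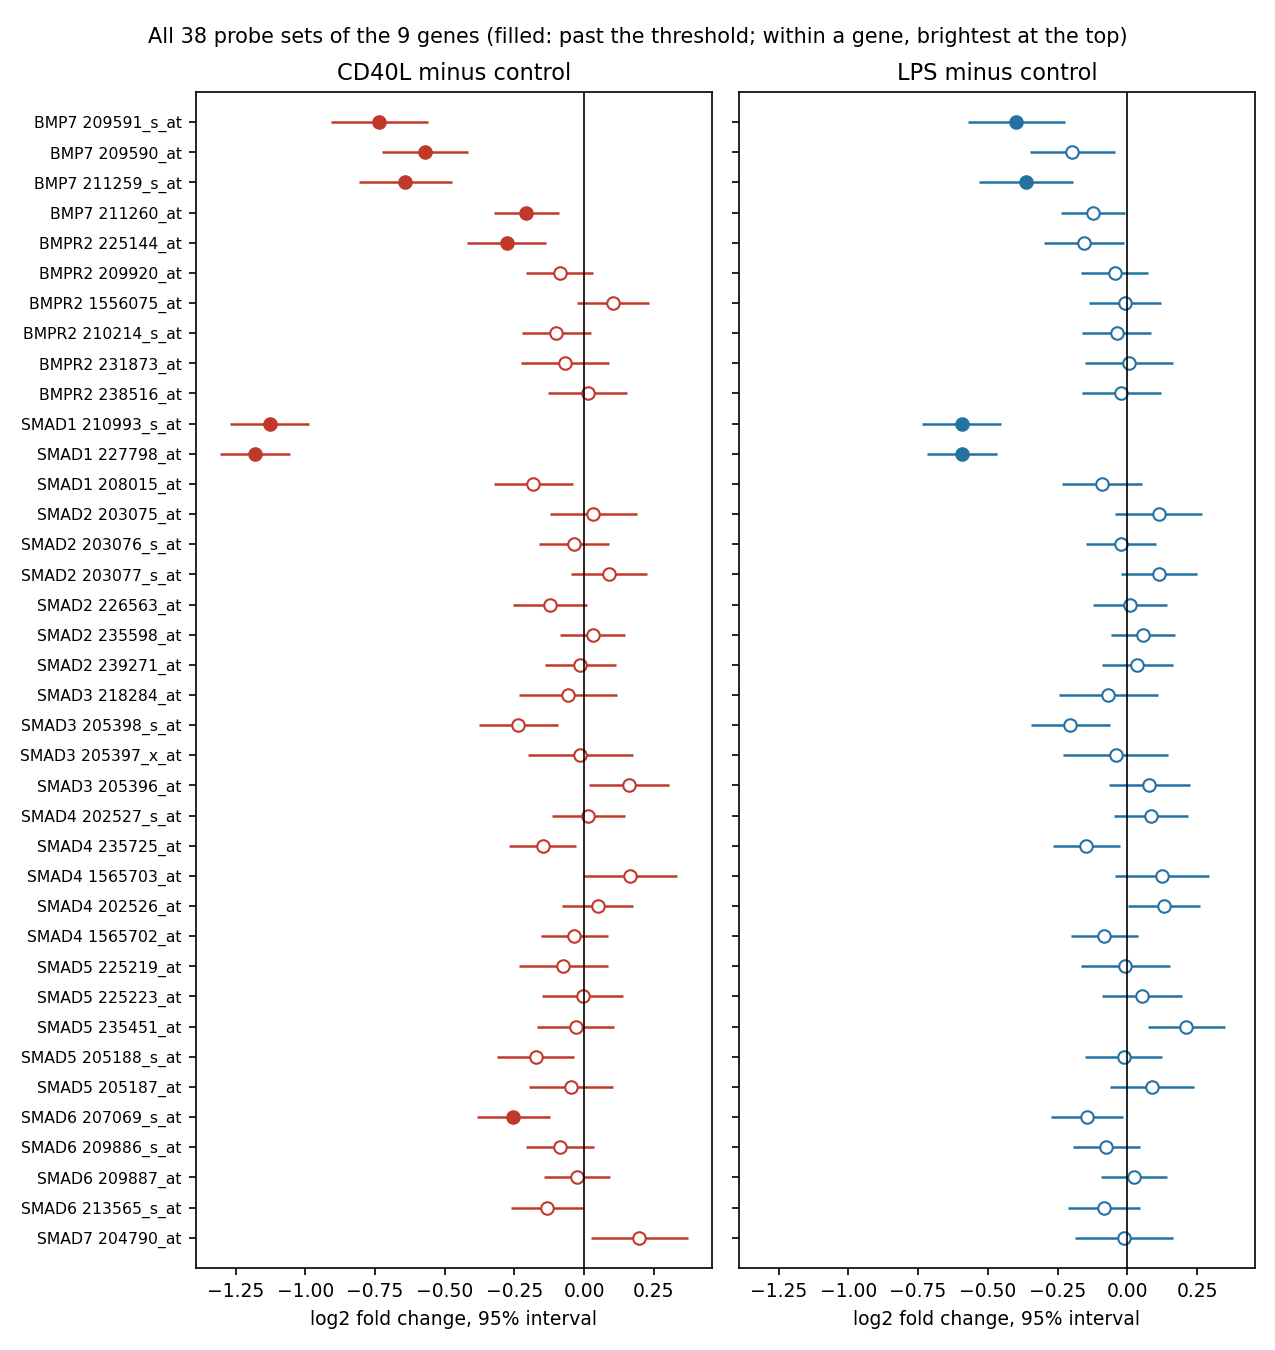
Log2 fold changes of all 38 probe sets after CD40L (left) and LPS (right) against control, as points with 95% intervals from limma, with filled points past the threshold. SMAD1 and BMP7 reach furthest to the left in both panels, with −1.18 and −0.73 after CD40L, while the points of SMAD2, SMAD3, SMAD4, SMAD5 and SMAD7 are open.

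Of the ligand, BMP7, which signals through type I and type II BMP receptors, all 4 probe sets were past the threshold after CD40L. The brightest, 209591_s_at, read 10.39, 9.87 and 9.90 in the control arrays of batches 1, 2 and 3, 9.52, 9.43 and 8.99 after CD40L, and 9.84, 9.78 and 9.34 after LPS. Every CD40L array lay below every control array, and every LPS array did too, whereas CD40L and LPS arrays overlapped. This gave a log2 fold change of −0.73 ± 0.082 after CD40L (95% interval −0.91 to −0.56) and −0.40 ± 0.082 after LPS (−0.57 to −0.22).

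Probe set 209590_at of BMP7 read 9.62, 9.43 and 9.57 in control cells, 8.84, 9.08 and 8.99 after CD40L, and 9.24, 9.43 and 9.35 after LPS. Here the CD40L arrays lay below all others, while the LPS arrays met the control arrays at 9.43 in batch 2. Against control it differed by −0.57 ± 0.072 (log2 fold change) after CD40L and by −0.20 ± 0.072 after LPS, of which the second was not past the threshold. Probe set 211259_s_at gave −0.64 ± 0.079 after CD40L and −0.36 ± 0.079 after LPS, both past the threshold. The dimmest, 211260_at, gave −0.21 ± 0.054 after CD40L, past the threshold, and −0.12 ± 0.054 after LPS, not past it.

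The size of the BMP7 difference varied between batches. For 209591_s_at, CD40L minus control was −0.86 in batch 1, −0.44 in batch 2 and −0.90 in batch 3, and LPS minus control was −0.55, −0.09 and −0.56. Batch 2 had the smallest difference in both contrasts. The 3 brightest BMP7 probe sets were past the threshold after CD40L under each of 20 alternative settings, whereas 211260_at was past it in 6 of them. For LPS, 209591_s_at was past the threshold in 11 of the 20 settings, with log2 fold changes from −0.55 to −0.32, and 211259_s_at in 10, from −0.51 to −0.26. The call for 209591_s_at after LPS was lost without batch 1 or batch 3, without replicate 1 or 3 of the control, without replicate 1 or 3 of LPS and in the 3 fits that dropped the batch term, made it random or used only the groups compared.

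The receptor BMPR2, the type II receptor of the BMP branch, had 1 of 6 probe sets past the threshold after CD40L and 0 after LPS. This probe set, 225144_at, read 7.66, 7.53 and 7.34 in control cells, 7.38, 7.28 and 7.04 after CD40L, and 7.35, 7.56 and 7.14 after LPS. The CD40L array was the lower one in each batch, but the groups overlapped, since the control array of batch 3 read below the CD40L array of batch 1. Its log2 fold change was −0.28 ± 0.067 after CD40L and −0.16 ± 0.067 after LPS. The call rested on single batches and arrays and was kept in 12 of 20 settings, with values from −0.33 to −0.24. It was lost without batch 1 or 3, without replicate 2 or 3 of CD40L, without replicate 1 or 3 of the control and in both fits that did not hold the batch as a fixed term. The other 5 BMPR2 probe sets lay between −0.10 and 0.10 after CD40L, so the probe sets of this gene did not share a direction.

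**Figure D2:**
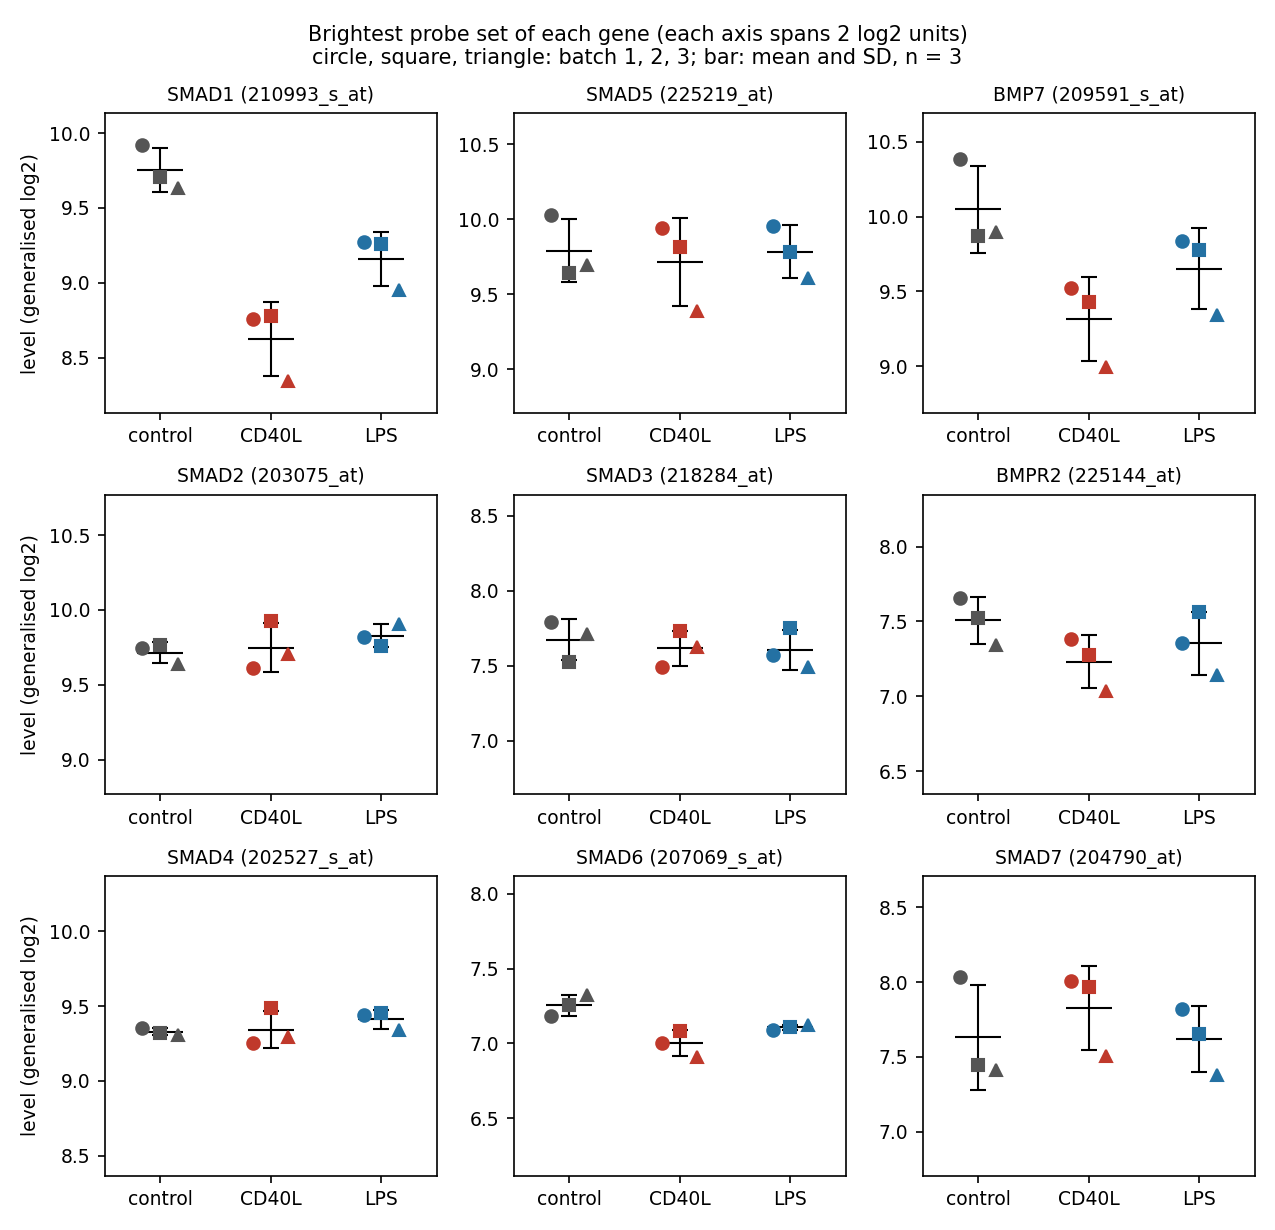
Level (generalised log2) of the brightest probe set of each gene in control, CD40L and LPS arrays. Points are single arrays with the shape giving the batch, and bars are means with SD (n = 3). Each vertical axis spans 2 log2 units. The order control, LPS, CD40L without overlap is seen for SMAD1 and, within a range of 6.91 to 7.32, for SMAD6, while the arrays of BMPR2, SMAD2, SMAD3, SMAD4, SMAD5 and SMAD7 overlap between conditions.

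SMAD1, a receptor SMAD activated by BMP receptors, had the largest differences of the 9 genes in both contrasts. Probe set 210993_s_at read 9.92, 9.71 and 9.64 in control cells, 8.76, 8.78 and 8.34 after CD40L, and 9.27, 9.26 and 8.95 after LPS. The 3 groups did not overlap, with control highest, LPS between and CD40L lowest. The log2 fold change was −1.13 ± 0.067 after CD40L (95% interval −1.27 to −0.99, 2.18-fold lower) and −0.59 ± 0.067 after LPS (−0.73 to −0.45, 1.51-fold lower).

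Probe set 227798_at of SMAD1 read 9.69, 9.79 and 9.73 in control cells, 8.47, 8.71 and 8.48 after CD40L, and 9.12, 9.17 and 9.14 after LPS. The groups again did not overlap and stood in the same order, and the SDs were 0.05 for control, 0.14 for CD40L and 0.02 for LPS. Its log2 fold change was −1.18 ± 0.059 after CD40L (95% interval −1.31 to −1.06, 2.27-fold lower) and −0.59 ± 0.059 after LPS (−0.72 to −0.47). Within batches 1, 2 and 3 it was −1.22, −1.08 and −1.25 after CD40L and −0.57, −0.62 and −0.59 after LPS. The calls of 227798_at held in all 20 settings in both contrasts. That of 210993_s_at held in all 20 after CD40L and in 19 after LPS, the exception being the fit without the batch.

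The third SMAD1 probe set, 208015_at, lay below the median of all probe sets. It read 6.41, 6.24 and 6.06 in control cells, 6.05, 6.05 and 6.06 after CD40L, and 6.15, 6.20 and 6.09 after LPS. The CD40L arrays were nearly equal, and the control array of batch 3 read the same to 2 decimals as the CD40L array of that batch. Its log2 fold change of −0.18 ± 0.067 after CD40L was not past the threshold.

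**Figure D3:**
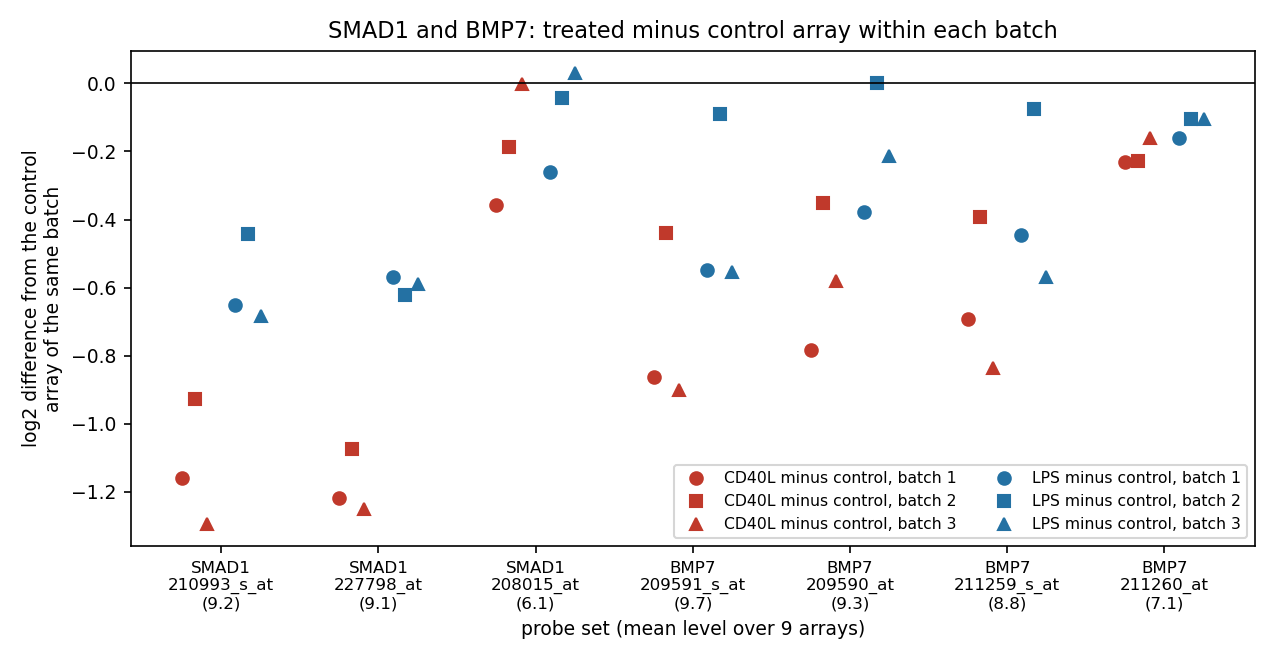
Log2 difference of each treated array from the control array of its batch for the 3 SMAD1 and 4 BMP7 probe sets, with the shape giving the batch, the colour the stimulus and the number below each name the mean level over 9 arrays. Points of both brighter SMAD1 probe sets lie between −1.29 and −0.93 after CD40L and between −0.68 and −0.44 after LPS. For the 3 brightest BMP7 probe sets the batch 2 point is the nearest to 0 for both stimuli.

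SMAD5, the other receptor SMAD of the BMP branch among the 9 genes (SMAD9 is given below), had no probe set past the threshold. Its brightest probe set, 225219_at, read 10.03, 9.64 and 9.70 in control cells, 9.94, 9.82 and 9.38 after CD40L, and 9.96, 9.78 and 9.61 after LPS, and the groups overlapped throughout. Over its 5 probe sets the log2 fold change ran from −0.17 to −0.01 after CD40L and from −0.01 to 0.21 after LPS. The 95% intervals of all 5 together spanned −0.31 to 0.14 after CD40L, so a fall of the size seen for SMAD1 lay outside them. After LPS, 235451_at gave 0.21 ± 0.065, higher in each of the 3 batches. It was past the threshold only when replicate 3 of the control was left out.

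Of the receptor SMADs of the TGF-β and activin branch, SMAD2 had log2 fold changes from −0.12 to 0.09 over 6 probe sets after CD40L and from −0.02 to 0.11 after LPS. Its brightest, 203075_at, had means of 9.72 ± 0.07 without stimulation, 9.75 ± 0.16 with CD40L and 9.83 ± 0.07 with LPS (SD, n = 3). These conditions did not differ beyond their spread. For SMAD3 the probe sets disagreed. Probe set 205398_s_at read 7.81, 7.63 and 7.63 in control cells, 7.53, 7.37 and 7.46 after CD40L, and 7.58, 7.58 and 7.30 after LPS, with every stimulated array below every control array. Its log2 fold changes of −0.24 ± 0.067 and −0.20 ± 0.067 were not past the threshold, though the first was in 6 of 20 settings. Probe set 205396_at had 0.16 ± 0.068 after CD40L, also not past the threshold, and the other 2 SMAD3 probe sets lay at −0.06 and −0.01.

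SMAD4, the partner of all receptor SMADs, read 9.35, 9.32 and 9.31 in control cells on its brightest probe set, 202527_s_at, against 9.25, 9.48 and 9.29 after CD40L and 9.44, 9.46 and 9.34 after LPS. The control arrays lay within the range of the CD40L arrays. Over its 5 probe sets, 3 of which lay below the median of all probe sets, the log2 fold change ran from −0.15 to 0.16 after CD40L and from −0.15 to 0.13 after LPS, with 0 past the threshold.

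Of the inhibitory SMADs, 1 SMAD6 probe set was past the threshold after CD40L. For SMAD6, which preferentially inhibits BMP receptors, 207069_s_at read 7.18, 7.25 and 7.32 in control cells, 7.00, 7.09 and 6.91 after CD40L, and 7.09, 7.11 and 7.13 after LPS. The groups did not overlap and stood in the same order as for SMAD1, although the closest LPS and CD40L arrays both read 7.09 to 2 decimals. Its log2 fold change of −0.25 ± 0.061 after CD40L was past the threshold and that of −0.14 ± 0.061 after LPS was not. The CD40L call was kept in 14 of 20 settings, with values over all 20 from −0.30 to −0.17, and was lost without batch 1, batch 3, replicate 1 or 3 of CD40L or replicate 3 of the control, and with only the groups compared. The other 3 SMAD6 probe sets lay between −0.13 and −0.03 after CD40L, not past the threshold, and 2 of the 4 lay below the median of all probe sets.

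SMAD7, which inhibits both branches, had 1 probe set, 204790_at. It read 8.03, 7.44 and 7.41 in control cells, 8.01, 7.97 and 7.51 after CD40L, and 7.82, 7.65 and 7.38 after LPS. The groups overlapped, and the CD40L array was higher than its control array in 2 of 3 batches. The log2 fold change was 0.20 ± 0.082 after CD40L (95% interval 0.02 to 0.37) and −0.01 ± 0.082 after LPS, and neither was past the threshold.

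In the direct contrast of CD40L and LPS, 3 of the 38 probe sets were lower after CD40L and 0 higher, where 0.0952% of all probe sets were lower, 0.3% higher and 0.396% either. These were 227798_at of SMAD1 with −0.59 ± 0.059, 210993_s_at of SMAD1 with −0.53 ± 0.067 and 209590_at of BMP7 with −0.37 ± 0.072. The 3 calls were kept in 20, 17 and 11 of 20 settings. That of BMP7 was lost, among others, without batch 1 or 3 and without any 1 of the LPS arrays. The other 3 BMP7 probe sets, the brightest among them, ran from −0.34 to −0.08 and were not past the threshold. In 8 of the 38 the CD40L arrays lay below all LPS arrays, as in 4.07% of all probe sets, and in 1, the dim 238516_at of BMPR2, above them, as in 5.1%. All 3 arrays of each group stood in the order control, LPS, CD40L without overlap in 3 of the 38, as in 0.357% of all probe sets. These 3 were both brighter SMAD1 probe sets and 207069_s_at of SMAD6. The count of 3 lower became 1, that of 227798_at, without batch 3, and 6 without replicate 2 of the control.

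Batches were compared with limma's F test over the batch terms, which does not use the stimulation contrasts, since each batch holds 1 array per condition. Of the 38 probe sets, 5 differed between batches at an adjusted p of at most 0.05, where 1.77% of all probe sets did. For SMAD7 the batch means were 7.95, 7.69 and 7.43 in batches 1, 2 and 3 (204790_at, adjusted p from limma = 0.0136). The means of BMP7 were 9.91, 9.69 and 9.41 (209591_s_at, adjusted p from limma = 0.0153), and those of SMAD5 were 9.98, 9.75 and 9.56 (225219_at, adjusted p from limma = 0.0250). SMAD1 had 9.32, 9.25 and 8.98 (210993_s_at, adjusted p from limma = 0.0281), whereas the means of its other bright probe set, 227798_at, ran from 9.09 to 9.22 and gave an adjusted p of 0.495 in limma. BMPR2 had 7.46, 7.45 and 7.17 (225144_at, adjusted p from limma = 0.0437).

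Batch 3 was the lowest in all 5, as in 77.5% of the probe sets that differed between batches. It was the lowest in 31 of the 38, or 81.6%, against 43.2% of all probe sets. The 38 come from 9 genes and are not independent, and most are brighter than the median of all probe sets, so the 2 shares are not matched. For SMAD7 the batch means spanned 0.52, more than the CD40L difference of 0.20. What set the batches apart was not tested. The count of 5 depended on single arrays, and was 0 without replicate 1 or 3 of CD40L, replicate 1 of the control or replicate 1 or 3 of LPS, 14 without replicate 2 of the control and 8 without replicate 3 of the control.

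**Figure D4:**
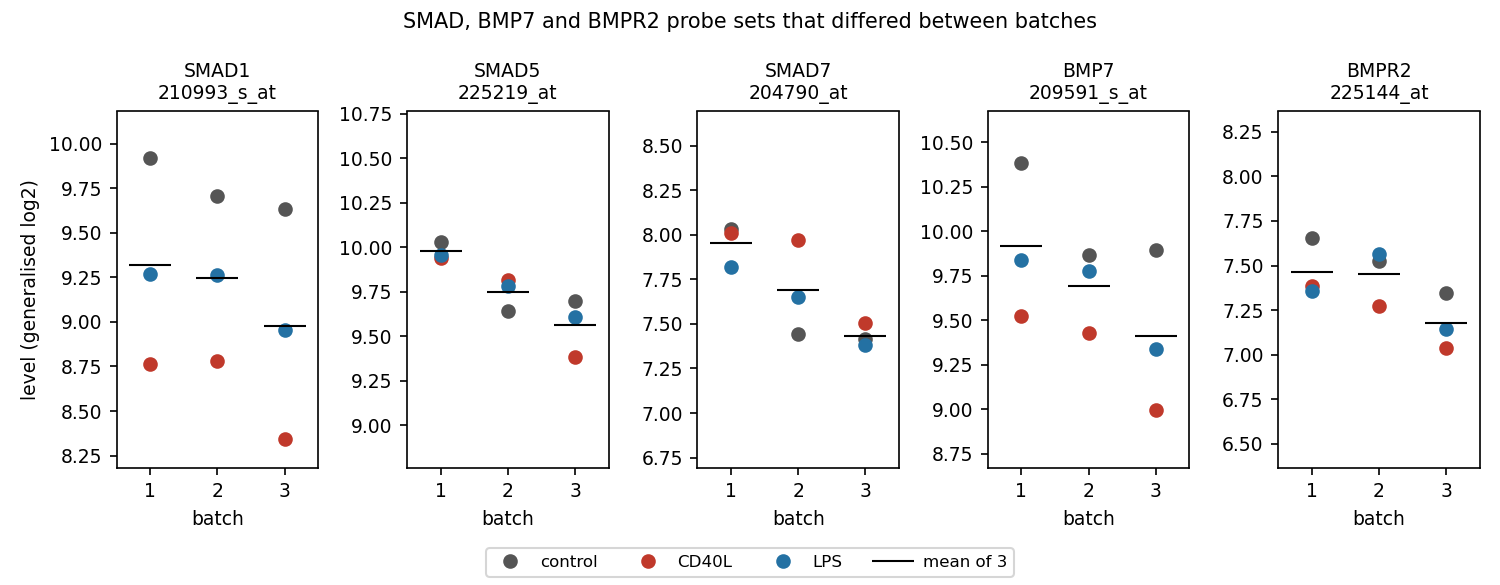
Levels (generalised log2) by batch of the 5 probe sets that differed between batches, with the colour giving the condition and the bar the mean of the 3 arrays of a batch. Each vertical axis spans 2 log2 units, and the batch 3 mean is the lowest in every panel, as in SMAD7 with 7.95, 7.69 and 7.43.

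Probe sets of the same gene were set against each other over the 9 arrays after the batch means were removed. These points share arrays, conditions and batches, and the values describe them without a test. Both brighter probe sets of SMAD1 had Pearson's r = 0.993, and the dim 208015_at had 0.72 and 0.73 with them. The 6 pairs of BMP7 probe sets had 0.909 to 0.996. For SMAD2 the pairs ran from −0.15 to 0.72 and for SMAD4 from −0.47 to 0.87. The brightest probe sets of SMAD1 and BMP7 had r = 0.979 with each other. Both genes were selected with their differences between conditions known, and those differences were left in the values. This r therefore cannot show co-variation beyond them.

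By the same measure, over 41088 probe sets naming 1 other gene, the 5 genes most like SMAD1 (210993_s_at) were WASF3 (r = 0.994), RASSF6 (0.994), HHEX (0.993), CD38 (0.992) and EIF2AK4 (0.992). Since SMAD1 itself differed by condition, genes picked in this way tend to differ by condition too. Their log2 fold changes after CD40L, from −0.77 for RASSF6 to −0.45 for EIF2AK4, are given as a description. CD38 is a surface ectoenzyme of germinal centre B cells, HHEX a homeobox factor and EIF2AK4 a kinase that senses amino acid shortage. With SMAD1, 178 of the 41088 probe sets had r of at least 0.95.

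The 5 genes most like BMP7 (209591_s_at) were BCL2L11 (r = 0.996), SEL1L3 (0.994), PITRM1 (0.984), HMGN5 (0.984) and CREB5 (0.984), over 41087 probe sets, of which 120 had r of at least 0.95. Their log2 fold changes after CD40L, again a description, ran from −0.50 for SEL1L3 to −0.17 for PITRM1. BCL2L11 and PITRM1 were not past the threshold after CD40L, and none of the 5 was after LPS. BCL2L11 encodes the pro-apoptotic protein BIM. CREB5 is a factor of the CREB family and PITRM1 a mitochondrial peptidase.

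The other genes of the pathway were taken from 5 lists, each gene by its brightest probe set, with 97 of 104 genes measured. The lists were chosen with earlier results of these data known, so their genes are also given as a description, without p-values. After CD40L, 4 were higher and 8 lower, where 3.71% of all probe sets were higher and 1.87% lower. After LPS, 1 was higher and 6 lower, where 1.17% of all probe sets were higher and 0.892% lower. These shares over all probe sets stand behind the counts of each list below. Between CD40L and LPS 0 passed the threshold by limma. Without batch 1 the 8 lower became 4, without batch 3 they became 5, and the 6 lower after LPS became 3 without batch 3. The 1 higher after LPS became 0 without batch 3 or without replicate 1 or 3 of LPS, 3 without batch 2 or replicate 2 of the control and 2 without replicate 3 of the control.

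Of 28 ligands measured, BMP6, a BMP of the same subgroup as BMP7, was higher after CD40L by 0.37 ± 0.066. Of its 3 probe sets, 1 was called higher. After LPS BMP6 had 0.19 ± 0.066, which was not past the threshold. The median of the ligands was −0.01 after CD40L. Of 16 receptors and coreceptors, the TGF-β receptors TGFBR1 and TGFBR3 gave −0.24 ± 0.059 and 0.23 ± 0.055 after CD40L. For TGFBR1, 1 of 3 probe sets was called lower, and for TGFBR3, 1 of 2 was called higher. The call was kept in 11 of 20 settings for TGFBR1 and in 10 for TGFBR3, and both calls were lost without batch 1 or 3. Of 14 extracellular antagonists, TWSG1, which binds BMPs together with chordin, was higher after CD40L by 0.47 ± 0.074 and after LPS by 0.42 ± 0.074. After CD40L, 2 of the 2 TWSG1 probe sets were called higher.

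Of 29 SMAD partners and regulators, 1 was higher and 3 lower after CD40L and 2 were lower after LPS, where 5.58% and 2.06% of all probe sets passed in either direction. PPM1A, a phosphatase that dephosphorylates receptor SMADs, was higher after CD40L by 0.43 ± 0.062. The small phosphatase genes CTDSP2 and CTDSP1 gave −0.34 ± 0.062 and −0.22 ± 0.057 after CD40L, and CTDSP2 gave −0.41 ± 0.062 after LPS. The CTDSP1 call was kept in 7 of 20 settings and was lost, among others, without batch 1 or 3, without the batch term and with the batch as a random effect. SMAD9, a further receptor SMAD of the BMP branch, was lower in both, with −0.33 ± 0.060 after CD40L and −0.30 ± 0.060 after LPS. After CD40L, 1 of the 2 SMAD9 probe sets was called lower. The SMAD9 call after CD40L was kept in 18 of 20 settings and was lost without batch 1 or 3. That after LPS was kept in 13 and was also lost without batch 1 or 3. It was lost too without any 1 of the LPS arrays, without the batch term and with the batch as a random effect.

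Of 10 target genes measured, ID1, ID2, ID3 and ID4 were lower in both contrasts and the other 6 did not pass the threshold. ID1 had −2.01 ± 0.077 after CD40L and −1.90 ± 0.077 after LPS, and the other three lay between −0.98 and −0.54 after CD40L and between −0.81 and −0.43 after LPS. The ID2 call after LPS was kept in 12 of 20 settings and was lost without batch 1 or 3, without replicate 3 of the control, without any 1 of the LPS arrays, without the batch term and with the batch as a random effect. After CD40L the ID2 call was lost without the batch term.

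**Figure D5:**
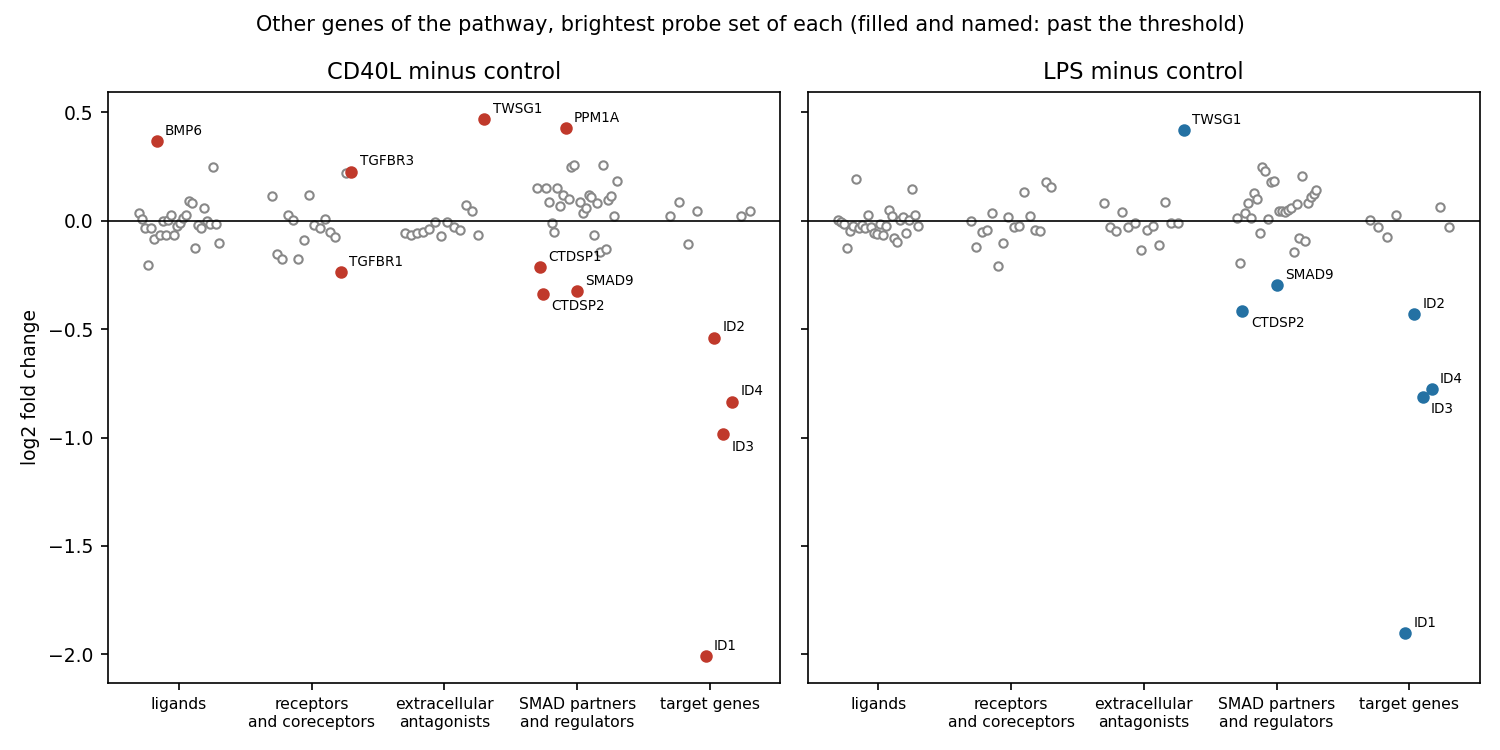
Log2 fold change of the brightest probe set of each of 97 pathway genes after CD40L (left) and LPS (right), by list along the horizontal axis. Filled and named points are past the threshold. The 4 ID genes lie lowest in both panels, down to −2.01 for ID1, and TWSG1 is the highest called point in both, with 0.47 and 0.42.

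Markers of B cells and of other cell types were read beside these results. Of 6 measured B cell markers, CD79A (−0.45), CD79B (−0.34) and CD22 (−0.45) were lower after CD40L and CD79A (−0.38) after LPS. All 3 measured germinal centre markers were lower after both stimuli. MME, BCL6 and CD38 gave −0.53, −0.47 and −0.65 after CD40L and −0.32, −0.31 and −0.33 after LPS. Of 15 markers of T and NK cells, monocytes and fibroblasts, 0 passed the threshold in any contrast by limma. Their summed level ran from 97.0 to 97.9 in control arrays, from 97.2 to 97.7 after CD40L and from 97.1 to 97.6 after LPS. Of these 15 markers, 6 had means above the median of all probe sets. Means ran from 6.17 to 7.55 for the 6 T and NK cell markers, of which 3 lay above the median. They ran from 6.00 to 6.67 for the 4 monocyte markers, with 1 above it, and from 5.80 to 7.94 for the 5 fibroblast markers, with 2 above it. The part of the germinal centre markers in the SMAD1 and BMP7 results was not tested.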

How the data were processed

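Whole-genome expression was measured on Affymetrix HG-U133 Plus 2.0 arrays in BL2 cells under 3 conditions (9 arrays). The authors corrected the background, normalised probe intensities by variance stabilisation, summarised them by median polish and deposited generalised log2 values, which were used as given. The number of arrays limits the precision. Agent doses and the modelling of batches come from the study's methods.

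Of 54675 probe sets, 62 AFFX controls were left out. The platform annotation names 1 gene for 41097, several for 1801 and none for 11777 here. Of the symbols, 41043 were matched by Entrez identifier to RefSeq's GRCh38.p14 gene table and 0 changed.

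Contrasts were fitted with limma 3.58.1 in R 4.3.3 (lmFit, eBayes, two-sided) over the 9 arrays, with terms for condition and batch and 4 residual and 11.6 prior degrees of freedom. The Benjamini and Hochberg adjustment ran over 54613 probe sets, with a threshold of 0.05. The smallest exact p that permuting 3 against 3 arrays allows is 0.1 when the pairing by batch is ignored. Errors of fold changes are standard errors of the fit. The batch numbers of the labels pair the arrays. Across conditions, deviations from group means had a mean correlation of 0.217 within a batch (−0.18 to 0.47) and −0.109 between batches. Deviations within a group cancel out over its batches, so the second mean largely follows from the first. The scripts were tested on simulated data.

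The 10 genes, the 5 pathway lists and the marker lists were chosen with earlier results of these data known. Named were all probe sets of the 10 genes, up to 4 called pathway genes per list and contrast by size of change, and the 5 genes most like SMAD1 and BMP7 by Pearson's r. Each listed gene was read from its brightest probe set. The markers and the stimulation check are named outside this rule. The alternatives dropped the batch term, made it random (statmod 1.5.0), fitted only the groups of a contrast, used quantile normalization or median centring, left out dim probe sets, kept AFFX probe sets, used eBayes with trend and robust, left out each batch and each array, took the most changed probe set of each listed gene, or kept batch means in the likeness. Promoter windows were read from RefSeq's table with Python 3.11.15.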

Additional observations from a re-analysis of the deposited data

How the results depend on the processing

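No value past the threshold changed sign under any alternative run. With no replicate block, that is without the batch in the fit, the SMAD, BMP7 and BMPR2 probe sets lower after LPS fell from 4 to 1 and those lower in CD40L minus LPS from 3 to 1. Pathway genes after CD40L went from 8 to 5 lower and from 4 to 2 higher, and those higher after LPS from 1 to 0. With the batch as a random effect these probe sets numbered 2 after LPS and 1 in CD40L minus LPS, with 0 pathway genes higher after LPS. With only the groups compared they numbered 2 and 6. Quantile normalization gave 6 in CD40L minus LPS and 2 pathway genes higher after LPS. Without removing batch means, 3 of the 5 named genes stayed among the 100 most like SMAD1, and 3 of 5 for BMP7.

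Leaving out a batch or an array gave 5 to 9 probe sets lower after CD40L, 2 to 6 lower and 0 to 1 higher after LPS, 1 to 6 lower in CD40L minus LPS, and 0 to 14 that differed between batches. The 1 higher after LPS was 235451_at of SMAD5, without replicate 3 of the control. Pathway genes ran from 4 to 9 lower and 3 to 5 higher after CD40L, and from 3 to 6 lower and 0 to 3 higher after LPS. Of the named genes, 2 to 4 of 5 stayed among the 100 most like BMP7, with 2 without batch 1. The cause of these moves was not tested. With 3 arrays per condition, small differences and dim probe sets such as 208015_at of SMAD1 are the least certain values.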
